A study of Mus musculus with 2 samples.

Results

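The interferon-induced GTPases examined here are 10 genes: the guanylate-binding protein genes Gbp2, Gbp2b, Gbp3 and Gbp4, the immunity-related GTPase genes Irgm1, Irgm2, Igtp and Iigp1, and the dynamin-like Mx1 and Mx2. They were chosen by symbol, with the values of both arrays known, and a gene was used where a probe set was annotated to it alone. This gave 9 of the 10 genes, with 1 probe set each, among 17874 genes in all. Gbp4 was not analysed here. The arrays, Affymetrix mouse arrays, held RNA of CFU-E cells (colony-forming units, erythroid), committed red cell progenitors that normally depend on erythropoietin. Both samples came from EpoR-/- BALB/c embryos at gestational day 13.5, which lack the erythropoietin receptor per the protocol, whereas the genotype label names Epo. Only the 0 h sample carries a strain label. The probe set for Epor, the gene of that receptor, read 7.08 at 0 h and 6.89 at 3 h, above the floor of 5.70 defined below. Without a wild-type array, and with the probes not placed relative to the deleted part, this does not check the genotype, so EpoR-/- is used here as a label.

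Livers were pooled, 40 to 50 per antibody selection. Red cells were lysed, and cells bearing GR1, CD41, CD11b, CD14, CD45, B220, CD4, CD8, TER-119 or the YBM/42 antigen were removed. All cells were then deprived of growth factors for 1 h in Panserin 401 with 2-mercaptoethanol and 1% BSA. The 0 h sample (1 array) was lysed after moving to Panserin 601, and the 3 h sample (1 array) was kept in Panserin 601 for 3 h. The protocol states that no growth factor was added. The label for treatment at 3 h reads otherwise, with supplemental growth factors, so the samples are named by time. There is no wild-type array, no replicate and no arm with interferon. No difference below therefore has an error or a test, and each describes these 2 arrays. The sources used here do not say whether 1 pool of livers gave both samples.

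Interferons bind receptors on the cell surface and, through JAK kinases, activate STAT and IRF transcription factors, which switch on a large set of genes. Guanylate-binding proteins and immunity-related GTPases are among the most strongly induced of these genes in many cell types. They assemble on the membranes of vacuoles that hold pathogens, or on bacteria in the cytosol, and help to break them open. Among the immunity-related GTPases, the Irgm proteins (Irgm1, Irgm2 and Igtp, also called Irgm3) keep the effector proteins, such as that of Iigp1, in an inactive state on the cell's own membranes. Mx proteins are dynamin-like GTPases that block virus replication. In blood formation, Irgm1 is known for its part in keeping haematopoietic stem cells quiescent under interferon.

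The sequences before the transcript starts show what these genes share besides their names. RefSeq promoter windows (assembly GRCm38.p6, 250 bases before to 50 after a transcript start) were found for 6 of the 10 genes: Gbp2, Gbp2b, Gbp3, Irgm1, Irgm2 and Igtp. Gbp4, Iigp1, Mx1 and Mx2 were not among the windows. These windows were searched on both strands for GAAA, any 2 bases and GAAA, the core of the interferon-stimulated response element (ISRE) that IRF-containing factors bind, and for TTC, any 3 bases and GAA, the core of the gamma-activated site (GAS) bound by STAT dimers. The ISRE core was present in all 6 genes, against 3.99% of the 27025 genes and 3.44% of the 32851 windows in the table. It was also present in 7 of 11 other interferon-induced GTPase genes and 11 of 23 other interferon-induced genes with a window. The GAS core was present in 2 of the 6, Igtp and Irgm2, against 9.55% of genes. Of the same other genes, 6 of 11 GTPase genes and 8 of 23 further interferon-induced genes held it. A match is a run of letters and does not show that a factor binds there.

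The 30 bases before the first ISRE base and the 30 from it on are printed to set the 6 matches side by side, in the direction of the gene, with ISRE and GAS letters in capitals.
Gbp2 (chr3:142620574-142620633, + strand): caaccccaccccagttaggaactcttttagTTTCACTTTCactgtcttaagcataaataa
Gbp2b (chr3:142594680-142594739, + strand): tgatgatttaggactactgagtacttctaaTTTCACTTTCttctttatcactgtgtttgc
Gbp3 (chr3:142559969-142560028, + strand): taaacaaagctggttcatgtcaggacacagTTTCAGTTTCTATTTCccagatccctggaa
Igtp (chr11:58199492-58199551, + strand): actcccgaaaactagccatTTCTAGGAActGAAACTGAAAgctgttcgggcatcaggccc
Irgm2 (chr11:58214883-58214942, + strand): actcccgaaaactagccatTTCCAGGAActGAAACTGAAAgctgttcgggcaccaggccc
Irgm1 (chr11:48871421-48871480, - strand): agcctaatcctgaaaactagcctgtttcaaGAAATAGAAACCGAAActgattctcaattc

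The 3 guanylate-binding protein genes carry the motif in the reverse orientation and the 3 Irgm genes in the forward one. Gbp2 and Gbp2b share the same 10 letters, TTTCACTTTC, but the 50 bases around them agree at 15 positions only. Igtp and Irgm2, neighbours on chromosome 11, agree at 48 of the 50 bases outside the ISRE, with the GAS core just before it in both. Irgm1 and Gbp3 hold 2 overlapping ISRE matches each. The first ISRE base lay 30 bases before the start in Irgm1, 34 in Igtp, 45 in Gbp3, 59 in Gbp2, 64 in Irgm2 and 137 in Gbp2b. Gbp3 has another RefSeq start, whose window holds neither motif.

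**Figure D1:**
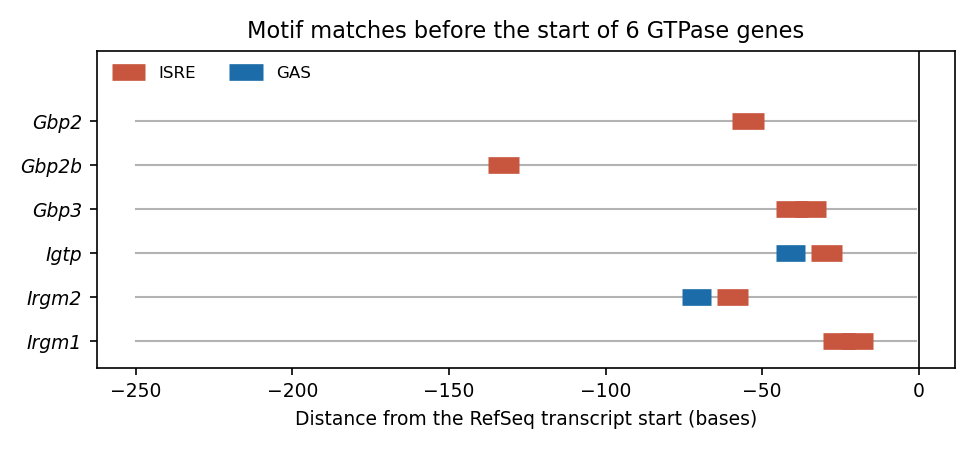
Positions of ISRE (red) and GAS (blue) matches, in bases from the RefSeq transcript start at 0, in the 250 bases before the start of 6 GTPase genes. All ISRE matches lie within 137 bases of the start, the 2 overlapping ones of Gbp3 and of Irgm1 are drawn as 1 block, and the GAS matches of Igtp and Irgm2 sit next to their ISRE.

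Of the 9 GTPase genes measured, 7 were higher at 3 h and 2 lower, on the deposited log2 scale. Counts were limited to genes with at least 1 value of 5.70 or more, a floor set at the median over genes and arrays, since signal and background are hard to separate below it. Of the 9 genes, 6 passed this floor, 4 of them at 0 h already, while Iigp1, Mx1 and Mx2 were below it on both arrays. Among those 6, 5 were at least 2-fold higher at 3 h (Gbp2, Gbp2b, Irgm1, Irgm2 and Igtp) and 1 was lower by that much (Gbp3). The floor left 9284 genes in all, of which 51.5% were higher at 3 h by any amount, 2.00% higher by at least 2-fold and 0.872% lower by at least 2-fold. By at least 1.5-fold, the same 5 and 1 of the 6 were higher and lower, beside 6.94% and 4.80% of all genes. As the genes were chosen with these values known, nothing is drawn from the contrast with those shares. The median difference was 1.98 for the 6 genes and 1.78 for all 9, beside 0.0094 for all genes at or above the floor and 0.00090 for all genes. In such bulk samples, more cells of a type and more RNA per cell cannot be told apart.

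**Figure D2:**
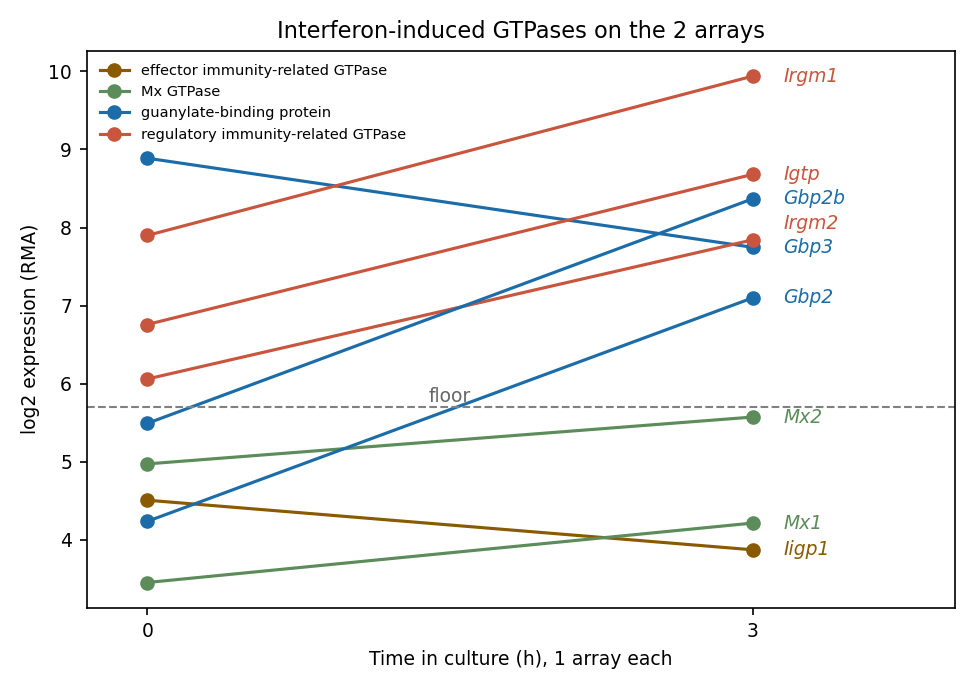
Deposited log2 expression (RMA) of the 9 GTPase genes measured, 1 point per array at 0 h and 3 h, joined by gene and coloured by family, with the floor of 5.70 dashed. Lines of Gbp2, Gbp2b, Irgm1, Irgm2 and Igtp climb, that of Gbp3 goes from 8.89 to 7.75, and Iigp1, Mx1 and Mx2 stay under the floor.

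Gbp2 and Gbp2b, which encode guanylate-binding proteins that coat pathogen vacuoles, had the highest differences of the family. Gbp2b had a log2 value of 5.49 at 0 h and 8.37 at 3 h, which is 7.36-fold higher. Gbp2 had 4.23 at 0 h and 7.10 at 3 h, or 7.29-fold higher. Both were below the floor at 0 h and above it at 3 h, so each fold starts from a signal near background. In the order of all 9284 differences from the highest, Gbp2b stood at place 8 and Gbp2 at place 9. Their differences were 0.014 apart, and with 1 array per time their order cannot be told. The Gbp2 probe set is of the type (suffix _x_at) whose probes can match other transcripts, and the genes are close paralogs, so the probe sets may share signal.

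Gbp3, another guanylate-binding protein gene of the same chromosome 3 cluster, ran the other way. It had 8.89 at 0 h and 7.75 at 3 h, 2.21-fold lower, and was well above the floor on both arrays. It stood at place 52 from the lowest among all 9284 differences. The differences of Gbp2 and Gbp2b exceeded that of Gbp3 by 4.01 and 4.02 log2 units. The promoter stretch of Gbp3 printed above holds 2 overlapping ISRE cores, and those of Gbp2 and Gbp2b hold 1 each. Its probe set carries the suffix _a_at, used for probes shared by several transcripts of 1 gene, and the sources used here do not say which transcripts it detects.

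The genes nearest to Gbp3 in the order of differences were Ncan (-1.14) and Glyctk (-1.14) above it and Hgd (-1.16) and Fads6 (-1.16) below it. Hgd, for homogentisate dioxygenase, and Glyctk, for glycerate kinase, encode enzymes of liver metabolism. All 9 hepatocyte markers measured, of 11 listed, were lower at 3 h, while 51.5% of all genes at or above the floor were higher. The median difference of the 9 markers was -0.19, and Apob (-0.79), Hnf4a (-0.70) and Ahsg (-0.58) were lowest. Their summed linear signal, the sum of the back-transformed values, was 83956 at 0 h and 75795 at 3 h. The part of hepatocyte RNA in the lower Gbp3 value was not tested.

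The 3 regulatory immunity-related GTPase genes were higher by similar amounts. Irgm1 had 7.90 at 0 h and 9.94 at 3 h, 4.12-fold higher. Igtp had 6.76 at 0 h and 8.68 at 3 h, 3.80-fold higher. Irgm2, whose protein like that of Igtp restrains effector GTPases, had 6.06 at 0 h and 7.84 at 3 h, 3.44-fold higher. All 3 were above the floor on both arrays, so their folds do not start from background, although Irgm2 was only 0.36 above it at 0 h. They stood at places 28 (Irgm1), 33 (Igtp) and 43 (Irgm2) from the highest. Their differences lay within 0.26 log2 units of each other, less than 0.31, the robust SD over all genes that reached the floor, so no order among them is read. Each was measured by a probe set without a suffix for shared probes.

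The effector gene Iigp1 and both Mx genes had little signal. Iigp1 had 4.51 at 0 h and 3.87 at 3 h, a difference of -0.64, and lay 1.20 and 1.83 log2 units below the floor. Mx1 had 3.45 and 4.21, a difference of 0.76. Mx2 had 4.97 and 5.57, a difference of 0.60, and came within 0.13 of the floor at 3 h. All 3 differences were less than 2-fold, and a probe set below the floor does not show that its gene is off. BALB/c, like most inbred strains, carries a defective Mx1 allele, and the place of the probes relative to that defect was not analysed here.

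**Figure D3:**
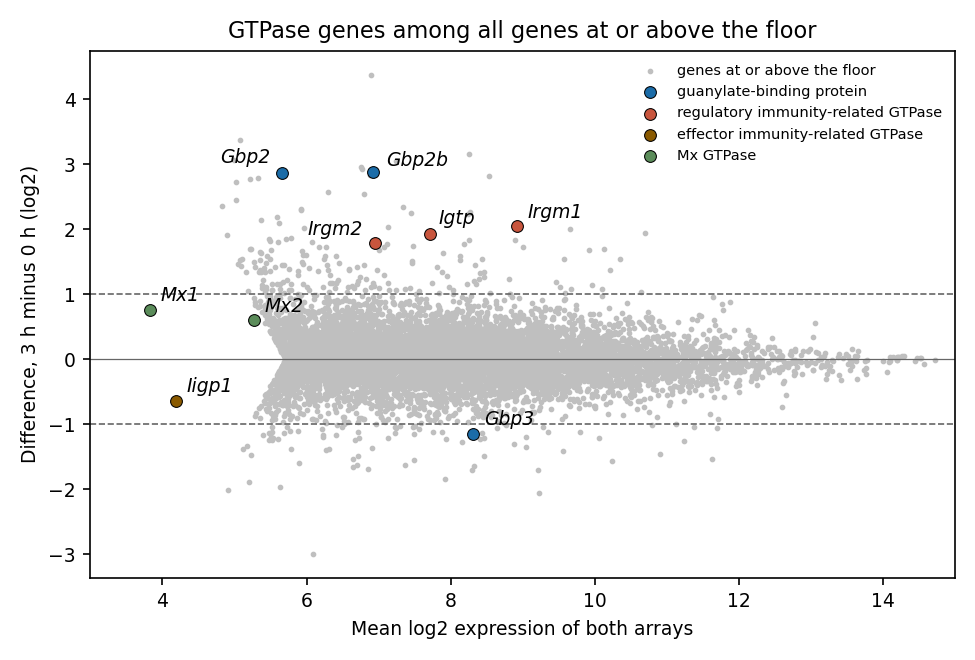
Difference in log2 expression (3 h minus 0 h) against the mean of both arrays, for 9284 genes at or above the floor (grey) and the 9 GTPase genes measured (coloured by family), with 2-fold lines dashed. Gbp2, Gbp2b, Irgm1, Irgm2 and Igtp lie above the upper line, Gbp3 lies below the lower line, and Mx1, Mx2 and Iigp1 lie between the lines at the dim end.

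By place in the order of differences, which with 2 arrays is the only likeness available, the GTPases stood among other interferon-induced genes and some of other kinds. Next to Gbp2b and Gbp2 were Sprr1a (2.95) and Cmpk2 (2.92) above and Slc4a1 (2.83) and Usp18 (2.81) below. Cmpk2 encodes an interferon-induced nucleotide kinase, Usp18 an inhibitor of interferon signalling, and Slc4a1 the red cell anion exchanger. Irgm1 lay between Ptgs2 (2.09), the prostaglandin synthase gene, and the antiviral gene Samd9l (2.04). Igtp lay between the calprotectin gene S100a9 (1.94) and the complement receptor gene C3ar1 (1.92). Irgm2 lay between Ifit3 (1.80), an antiviral gene, and Olfm4 (1.78), a neutrophil granule and epithelial gene.

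Gbp2, Gbp2b and Gbp3 lie in 1 cluster of related genes, and Igtp and Irgm2 side by side. On chromosome 3 the RefSeq gene order is Gbp5, Gbp7, Gbp3, Gbp2b, Gbp2 and then Kyat3. Gbp7 had 6.86 at 0 h and 7.32 at 3 h, a difference of 0.46, and Gbp5 was not analysed here. Kyat3, an aminotransferase gene next to Gbp2, had a difference of -0.68, and Gtf2b (0.08) and Pkn2 (0.08) beyond it differed little. Pdlim5, on the other side of Gbp5, had a difference of 0.48. Within 3 neighbouring genes the differences thus ran from -1.14 (Gbp3) to 2.88 (Gbp2b) and 2.87 (Gbp2).

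On chromosome 11, Igtp (1.93) and Irgm2 (1.78) are adjacent. Their nearest measured neighbours, the mitochondrial ribosomal gene Mrpl22 (-0.20) and 4930438A08Rik (0.32, below the floor on both arrays), differed by less than 1.5-fold. Irgm1 (2.04) lies apart from them on the same chromosome, next to Trim7 (-0.29) and the GTPase gene Gm12185 (0.18), both below the floor on both arrays, with Gm5431, not analysed here, in between. Around Gbp4 on chromosome 5, Gbp8 (0.13) and Gbp6 (0.28) were below the floor on both arrays.

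**Figure D4:**
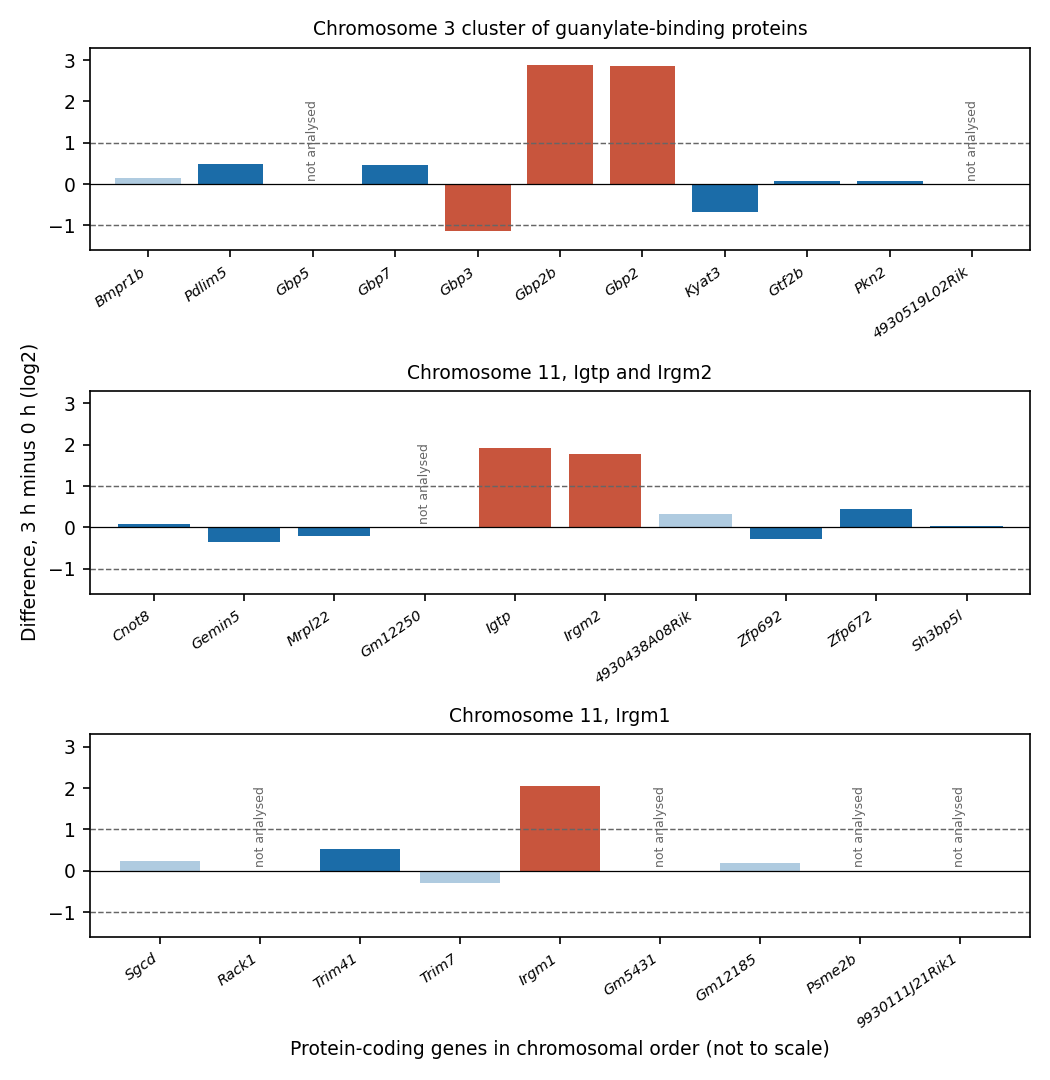
Difference in log2 expression (3 h minus 0 h) of protein-coding genes in chromosomal order around Gbp2, Gbp2b and Gbp3, around Igtp and Irgm2, and around Irgm1, with the listed GTPases red, other genes blue, and genes below the floor on both arrays pale. Gbp2b (2.88) and Gbp2 (2.87) stand beside Gbp3 (-1.14), and no neighbour outside the listed genes passes the 2-fold lines.

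Other interferon-induced GTPase genes were mostly dim. Of 21 listed, 7 were measured and 3 reached the floor. Ifi47, an immunity-related GTPase gene of the effector class, had 5.17 at 0 h and 6.98 at 3 h, 3.50-fold higher. Its 0 h value was below the floor, so it was counted through its 3 h value alone. Gbp7 (0.46) and Irgq (0.11), an unusual member of the family, differed by less than 1.5-fold. The others, Gbp6, Gbp8, Gm12185 and Irgc1, were below the floor with differences from 0.13 to 0.28. Of 10 large GTPases of the dynamin superfamily that are not known as interferon-induced, 9 were measured and 7 reached the floor. None of these 7 differed by 1.5-fold. Of all genes at or above the floor, 6.94% were higher and 4.80% lower by that much. With so few genes, 0 is near those shares. As the listed GTPases were chosen with their values known, nothing is drawn from setting these beside them. Their median difference was 0.0041, with Atl1 (0.23), which shapes the endoplasmic reticulum, and the mitochondrial fusion gene Mfn1 (-0.22) farthest from 0 among the 7. An ISRE core was in a promoter window of 0 of the 10 dynamin relatives, beside 3.99% of all genes with a window.

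The upstream pathway was also measured. All 10 interferon genes measured, of 20 listed, were below the floor on both arrays, with levels of at most 5.09, and Ifnb1 (3.61 and 4.01), the type I interferon made first by many cells, differed by 0.40. Of 6 receptor chain genes, 3 reached the floor. Ifngr1, the binding chain for interferon-gamma, had 9.06 at 0 h and 8.47 at 3 h, 1.50-fold lower. Ifnar2, of the type I receptor, differed by -0.36 and Ifngr2 by 0.09. Ifnar1 (4.57 and 4.05), Ifnlr1 (3.94 and 4.19) and Il10rb (3.37 and 3.10) were below the floor.

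Of 11 kinases and transcription factors measured, 10 reached the floor, with a median difference of 0.36, and the median over all 11 was 0.33. At 0 h 8 of the 10 reached it, so Irf7 and Stat2 were counted through their 3 h value alone. Irf7, which amplifies type I interferon responses, was 3.60-fold higher (4.79 and 6.64), and Irf9, the DNA-binding subunit of the factor that reads the ISRE, was 2.80-fold higher (6.73 and 8.21). Its partner Stat2 differed by 0.83 (5.01 and 5.84), and the receptor kinase gene Jak2 by 0.54. Irf1, a factor induced strongly by interferon-gamma, differed by -0.25 and Irf8 by 0.02. Among 8 inhibitor genes, 7 reached the floor, with a median of 0.33. Usp18 was 7.03-fold higher (7.13 and 9.94), Socs3 was 1.61-fold lower, and Socs1 (4.78 and 4.99) stayed below the floor.

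Interferon-induced genes that are not GTPases were measured for 27 of 30, and 20 reached the floor. By at least 2-fold, 14 were higher and 0 lower, beside 2.00% and 0.872% of all genes at or above the floor, with a median difference of 1.63. Only 11 of the 20 reached the floor at 0 h, so 9 were counted through their 3 h value alone, and the median over all 27 was 1.12. Among the 20 that reached the floor, Rtp4 (4.38), Rsad2 (3.38), Cmpk2 (2.92), Ifit1 (2.79) and Parp14 (2.31) were highest. Bst2 (-0.36) was the 1 gene of these 20 that was lower. Of 15 genes known best as targets of interferon-gamma, 7 reached the floor, 6 of them at 0 h already. Psmb9 (5.50 and 5.75) was counted through its 3 h value alone. None of the 7 was 2-fold higher, beside 2.00% of all genes at or above the floor. With so few genes, 0 is near that share. The median of the 7 was 0.48. Over all 15 the median was 0.07. Tap2 (0.61), for peptide transport, and the chemokine gene Cxcl10 (0.60) were highest, and Cd74 differed by 0.54, Psmb8 by 0.48 and Psmb9 by 0.24. The class II activator gene Ciita, the chemokine gene Cxcl9 and Nos2 were below the floor on both arrays. The difference between the 2 lists was not tested.

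Genes whose products act with these GTPases were mixed. Of 13 genes of ubiquitin-like conjugation and vacuole targeting, 11 reached the floor. At least 2-fold higher was 1 of them, beside 2.00% of all genes at or above the floor. It was Trim21, an interferon-induced ubiquitin ligase and antibody receptor (2.45-fold). The autophagy receptor gene Sqstm1 (0.76) and the LC3 genes Map1lc3a (0.60) and Map1lc3b (0.59) were at least 1.5-fold higher, and Atg5 (-0.25) was lowest. With Trim21, 4 of the 11 were higher and 0 lower by at least 1.5-fold, beside 6.94% and 4.80% of all genes at or above the floor. The list had a median of 0.11. Of 8 inflammasome genes, 2 reached the floor: Pycard, for the adaptor ASC (-0.02), and Gsdmd, for the pore protein gasdermin D (-0.61). Casp1, Casp4 and Aim2, which act downstream of guanylate-binding proteins in macrophages, were below the floor on both arrays.

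**Figure D5:**
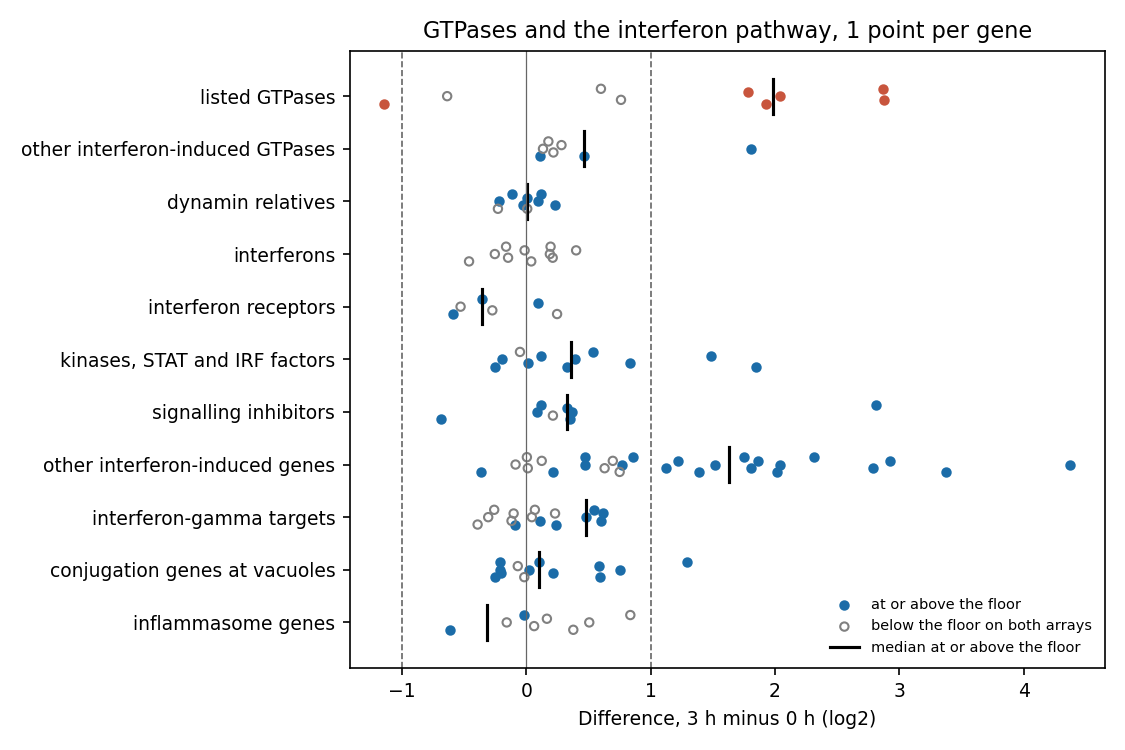
Difference in log2 expression (3 h minus 0 h) of each gene measured in 11 lists, with the listed GTPases in red, other genes at or above the floor in blue, genes below it on both arrays as open circles, medians of genes at or above the floor as black bars, and 2-fold lines dashed. The medians are 1.98 for the listed GTPases, 1.63 for other interferon-induced genes and 0.0041 for dynamin relatives, and all interferon genes are open circles.

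The ISRE core was next set against the differences of all genes, with the listed GTPases left out. Of 262 genes at or above the floor with an ISRE core in a promoter window, 13 (4.96%) were at least 2-fold higher, beside 129 of 7342 (1.76%) without one. These 13 were Rsad2, Ifit1, Trim30a, Ddx58, Tmem140, Ifit3, Clec4d, Ifih1, Trim12c, Trim21, Tdrd7, Eif2ak2 and Saa3, many of them antiviral genes. Of the 13, 7 (Rsad2, Ifit1, Trim30a, Ddx58, Tmem140, Ifit3 and Clec4d) were below the floor at 0 h and were counted only through their 3 h value. Among genes that reached the floor on both arrays, 6 of 239 (2.51%) with the core and 64 of 6812 (0.940%) without it were at least 2-fold higher. At least 2-fold lower were 3 of the 262 (1.15%) and 55 of the 7342 (0.749%). The median difference of the 262 was 0.01. These shares describe the 2 arrays, and their difference was not tested.

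Cell type markers were measured on the same arrays. Of 10 erythroid genes 9 were measured and 8 reached the floor, 7 of them higher at 3 h and 1, Epor, lower (-0.19). Among all genes at or above the floor, 51.5% were higher. Klf1 (12.03 and 12.31), Gata1 (9.32 and 10.15), Kit (9.01 and 9.03) and Tfrc (10.11 and 10.72) were well above it on both arrays. Slc4a1 (5.47 and 8.30), below the floor at 0 h, was 7.10-fold and the transcription factor gene Nfe2 2.15-fold higher. Alas2, which encodes a haem synthesis enzyme, did not reach the floor (4.49 and 4.72). Hepatocyte markers such as Afp (14.60 and 14.53) and Alb (14.15 and 13.96) were also high, so the samples were not erythroid RNA alone. Of 13 granulocyte markers 12 were measured and 9 reached the floor. All 9 were higher at 3 h, 5 of them at least 2-fold, beside 51.5% and 2.00% of all genes at or above the floor. At 0 h 6 of the 9 reached the floor, so Camp, Lcn2 and Ngp were counted through their 3 h value alone. The summed linear signal of all 12 measured went from 6485 to 12479.5. The granulocyte genes Ltf, Mmp8 and Mmp9 were below the floor on both arrays.

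Macrophages respond to interferon and express these GTPases, so their markers stand beside the GTPase values. Of 15 measured, 5 reached the floor, 4 of them higher and 1 lower, while 51.5% of all genes at or above the floor were higher. Lyz2 was 3.55-fold, Csf1r 2.00-fold and Fcgr3 1.74-fold higher, and Vcam1 was 1.97-fold lower. The summed linear signal of all 15 went from 1634 to 2504, a ratio of 1.53. Adgre1 (F4/80), Cd68, C1qa, C1qb, C1qc, Mrc1, Cd163, Marco, Timd4 and Mpeg1 were below the floor on both arrays. Of 8 endothelial markers 2 reached the floor, Pecam1 (0.27) and Kdr (-0.03), and of 8 lymphoid markers 1 did, Ighm (0.74). Among 5 markers of plasmacytoid dendritic cells, which make much type I interferon, 2 did, Klk1 (-0.59) and Irf8, while Siglech (5.30 and 4.72) did not. Of 5 megakaryocyte markers 4 did, but only 1 of them at 0 h already. Among these Gp1bb, with 4.49 at 0 h and 6.68 at 3 h, differed most (2.19). The part of other cell types in the GTPase differences was not tested.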

How the data were processed

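Values were used as deposited. Per the submitters' processing notes, the authors made these log2 values with the affy package and RMA (which corrects the background, equalizes the arrays by quantiles and summarises each probe set). Versions, and which arrays were normalized jointly, are not given in the sources used. RMA equalizes the distributions, so a shift of all transcripts cannot be seen, and it compresses dim signals. The medians over 20666 probe sets were 5.29 at 0 h and 5.32 at 3 h. Read depth does not apply, and having 1 array per time limits the precision.

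Probe sets were named from the platform annotation: 17918 had 1 gene, 79 several and 2669 none. Entrez IDs matched 17767 of them to RefSeq genes (GRCm38.p6). Probe sets of a gene were averaged, and differences are 3 h minus 0 h. The genes named were the 10 GTPases, all other GTPases and receptors measured, preset signalling genes, up to 5 genes of each list with the largest difference, and neighbours in the order of differences. Genes with an ISRE core that were at least 2-fold higher, chromosomal neighbours and further list genes were named after their values were seen. Members and lists were chosen with earlier results of these data known.

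A planned comparison of protein sequences was not made. Alternatives were quantile normalization, removal of an intensity trend (loess, span 0.3), another probe set rule, other floors, the mean, and a 1.5-fold threshold. Python 3.11.15, numpy 2.4.6, pandas 2.3.3, statsmodels 0.14.6 and matplotlib 3.10.9 were used. Only the fold calls, with and without quantile normalization or trend removal, were tested on simulated data. Shifts were planted in brighter genes, not near the floor, and the motif search and lists were not simulated.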

Additional observations from a re-analysis of the deposited data

How the results depend on the processing

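No paired analysis was possible because each time has 1 array. Each gene had 1 probe set, so only quantile normalization and removal of an intensity trend could change its difference. Under both, the differences of the 9 genes kept their sign and moved by at most 0.051, less than 0.31, the robust SD of all differences. Both act on values that RMA had already equalized, so these small moves do not measure the precision. Quantile normalization and removal of an intensity trend left 5 genes at least 2-fold higher and 1 lower. Without probe sets of the suffixes _s_at, _x_at and _a_at, which drops Gbp2, Gbp3, Iigp1 and Mx1, 4 of 5 genes were at least 2-fold higher and 0 lower. With the floor at the 75th percentile (7.96), 3 of 4 genes were at least 2-fold higher, namely Gbp2b, Irgm1 and Igtp. The remaining gene, Gbp3, was at least 2-fold lower. Requiring both values at or above the floor, an alternative chosen after seeing the data, left 3 of 4, namely Irgm1, Irgm2 and Igtp. Gbp3 was again the gene at least 2-fold lower. By that rule, 91 of all 8590 genes (1.06%) were at least 2-fold higher. For the other counts in this paragraph, no share of all genes was computed, so nothing is read from them. The mean over all 9 genes was 1.23, below the median of 1.78.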
